A study of Mus musculus with 48 samples.

Results

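Replication-dependent histone genes encode the core histones H2A, H2B, H3 and H4 that package newly copied DNA. They were taken as the protein-coding genes whose symbol starts with Hist1h, Hist2h, Hist3h or Hist4h, or is H2ac, H2bc, H3c or H4c with a number. The rule found 57 of 21900 protein-coding genes of the mouse annotation, namely 17 H2A, 16 H2B, 12 H3 and 12 H4 genes. They lie in 5 groups split at gaps above 100 kb, with 47 genes on chromosome 13 and 10 on chromosome 3 (mm10). The largest group holds 24 genes at chr13:23531044-23762386, and the smallest holds the pair H2bc1 and H2ac1 at chr13:23933725-23934913. The other 3 lie at chr13:21715711-21833475 with 16 genes, chr13:22035122-22043658 with 5 genes and chr3:96219885-96270192 with 10 genes. Neighbours share regions, so values are counted once per stretch of overlapping regions.

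As background, these genes are short, lack introns and are transcribed strongly when DNA is replicated. Their mRNAs end in a stem-loop in place of a poly(A) tail, and NPAT and the stem-loop binding protein are among the factors that serve them. NELF holds RNA polymerase II just downstream of start sites and has also been tied to the 3' end processing of histone mRNAs. Many H2A and H2B genes sit head to head and share a short promoter between their start sites.

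The study profiled mouse embryonic stem cells by ChIP-seq in 48 samples, which form 24 groups of 2 libraries. The knockout lines were iZbtb11-HA Zbtb11KO (here Zbtb11KO), iZfp131-HA Zfp131KO (here Zfp131KO) and iZbtb11-HA iZfp131-V5 Zbtb11KO Zfp131KO (here doubleKO), set against Ainv15 iCre cells (wildtype). All were grown for 3 days without doxycycline in medium labelled -2i+LIF, except that the HA ChIPs were made after 3 days with doxycycline, which induces the tagged factor, in +2i+LIF. The labels name 1 line per genotype, so a knockout and a difference between lines cannot be told apart. The knockout lines also carry inducible transgenes that wildtype cells, which carry iCre, are not labelled as having.

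Every file pools a group or compares a pair of groups, so no value exists per library. Per their headers the NELF event lists rest on 71.6 M reads (M, 1000000) for doubleKO, 61.5 M for Zfp131KO, 51.1 M for Zbtb11KO and 60.5 M for wildtype. The domain lists give no library totals, so the depth behind H3K4me3, H3K27ac, H3K27me3 and polymerase values is unknown. The wildtype NELF header names 1 signal replicate and the other headers name 2. In wildtype, of 6 stem cell markers 6 had a POL2S5P domain, 5 an H3K27ac domain, 6 a NELF event and 5 an H3K4me3 domain. Of 6 fibroblast markers, 0 had POL2S5P, 0 H3K27ac, 2 NELF and 6 H3K4me3. Of 6 primitive endoderm markers, 2 had POL2S5P, 1 H3K27ac, 4 NELF and 4 H3K4me3. The deletions could not be checked in these lists: Zbtb11 had no NELF event or H3K4me3 domain listed in any genotype, and Zfp131 had both in all 4.

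Promoter sequences are shown for the results described below. RefSeq promoters (GRCm38.p6, from 250 bases before to 50 bases after the start site) were found for 52 of the 57 genes. Capitals mark the octamer ATTTGCAT, the CCAAT box and the sequence TATAAA on either strand, wherever they lie in the promoter. The first was chosen because H4c4 had the most wildtype NELF reads of any member (chr13:23581318-23581617, plus strand). The second lies at the ZFP131 events (chr13:23761200-23761499, minus strand). The third spans the promoter that H2ac8 shares with H2bc8, where H3K4me3 split into pieces (chr13:23571171-23571470, minus strand). The last pair, at chr13:21811496-21811795 (plus strand) and chr13:21832148-21832447 (minus strand), shows near-identical copies with little listed signal.
H4c4: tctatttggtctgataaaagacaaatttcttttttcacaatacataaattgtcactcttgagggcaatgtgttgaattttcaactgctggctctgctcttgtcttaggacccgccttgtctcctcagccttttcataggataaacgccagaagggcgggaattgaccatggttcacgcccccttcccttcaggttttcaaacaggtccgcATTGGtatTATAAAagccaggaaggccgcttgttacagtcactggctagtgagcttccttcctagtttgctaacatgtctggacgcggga
H4c1: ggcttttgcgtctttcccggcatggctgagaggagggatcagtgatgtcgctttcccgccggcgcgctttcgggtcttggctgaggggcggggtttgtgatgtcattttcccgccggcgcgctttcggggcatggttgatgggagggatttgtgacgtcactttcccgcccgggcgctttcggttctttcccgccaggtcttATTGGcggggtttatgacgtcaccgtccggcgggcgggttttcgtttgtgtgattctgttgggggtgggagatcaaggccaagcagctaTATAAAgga
H2ac8: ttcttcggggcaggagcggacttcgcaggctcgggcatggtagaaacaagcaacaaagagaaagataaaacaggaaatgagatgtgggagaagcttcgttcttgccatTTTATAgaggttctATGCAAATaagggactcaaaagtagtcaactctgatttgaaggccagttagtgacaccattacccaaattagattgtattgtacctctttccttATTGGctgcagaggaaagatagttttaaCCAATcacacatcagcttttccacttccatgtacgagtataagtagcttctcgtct
H4c17: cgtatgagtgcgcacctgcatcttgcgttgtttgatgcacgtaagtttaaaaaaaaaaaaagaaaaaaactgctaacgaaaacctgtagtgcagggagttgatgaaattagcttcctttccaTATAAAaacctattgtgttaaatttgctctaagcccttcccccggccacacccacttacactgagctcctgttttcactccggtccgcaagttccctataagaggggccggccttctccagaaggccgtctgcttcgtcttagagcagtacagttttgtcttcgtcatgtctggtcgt
H4c18: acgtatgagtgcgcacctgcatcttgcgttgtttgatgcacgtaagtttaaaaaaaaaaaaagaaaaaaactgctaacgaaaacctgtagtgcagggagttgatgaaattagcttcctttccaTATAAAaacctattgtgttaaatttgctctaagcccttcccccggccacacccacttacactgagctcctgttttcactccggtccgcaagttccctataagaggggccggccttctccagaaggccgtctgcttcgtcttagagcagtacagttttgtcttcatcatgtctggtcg
The promoters of H4c17 and H4c18 differed at 1 of 299 aligned bases. The promoters of H2ac23 and H2ac24, which lie beside them, were identical over 200 of 200 aligned bases.

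The sequence motifs divided the families. The octamer, the binding sequence of POU-domain factors, was found in 6 of 17 H2A and 7 of 15 H2B promoters and in 0 of 10 H3 and 0 of 11 H4 promoters, against 1.66% of 21238 promoters of all protein-coding genes. The CCAAT box was found in 17 of 17 H2A, 15 of 15 H2B and 10 of 10 H3 promoters but in 3 of 11 H4 promoters, against 38.2% of all promoters. TATAAA was found in 11 of 17 H2A, 7 of 15 H2B, 4 of 10 H3 and 8 of 11 H4 promoters, against 12.6% of all promoters. Matches at any position count, so these are not counts of TATA boxes. TATAAA lies 32 bases before the start site in H4c4, 128 before it in H4c17 and 41 after it in H4c1. H2A and H2B partners share much of their promoter, so these counts are not independent, and H2bc6 has 2 promoters among the 53 counted.

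Most histone genes carried the marks of active transcription in wildtype cells. Of the 57 genes, 44 had a NELF event within 1 kb of a gene end, 43 a SIN3A event, 43 an H3K4me3 domain, 42 an H3K27ac domain and 42 a POL2S5P domain. These shares were 77.2%, 75.4%, 75.4%, 73.7% and 73.7%, against 59.3%, 60.4%, 64.2%, 46.1% and 57.3% of all protein-coding genes. All 5 were present at 34 histone genes (59.6%), against 42.9% of all genes. Neighbours share entries: the 42 genes with a POL2S5P domain rested on 48 domains, and those with H3K27ac on 89 domains.

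**Figure D1:**
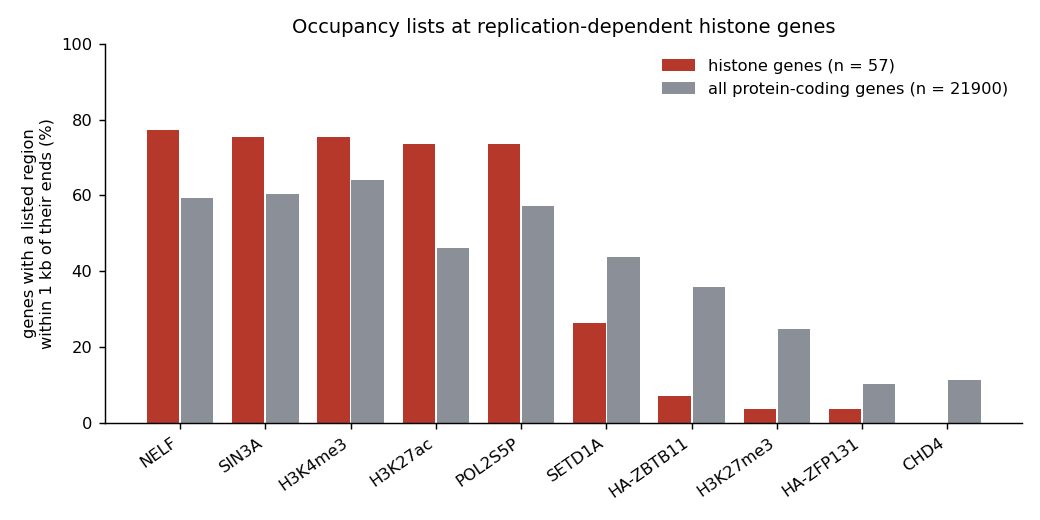
Percent of genes with a listed event or domain within 1 kb of their ends, for 57 histone genes (red) and 21900 protein-coding genes (grey). Histone genes stood at 77.2% for NELF against 59.3% of all genes, and at 7.02% for HA-ZBTB11 against 35.9%.

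Wildtype NELF reads were highest at H4 genes. The strongest event within 1 kb held 1625 reads at H4c4, 1471 at H4c9, 1235 at H4c1, and 1120 at H4c6. The H4c1 event, 99 bp downstream of the H4c1 start site, is also the strongest within 1 kb of H3c1. The H2A genes with an event had a median of 703.1 reads in their strongest event, the H2B genes 696.4, the H3 genes 654.4 and the H4 genes 894.5. The strongest event lay a median of 37.5 bp downstream of the annotated start site over 38 genes, with quartiles of -239 and 91.3 bp, and at 21 of the 38 it lay 0 to 150 bp downstream. At H4c4 it lay 76 bp downstream of the start site printed above. Head-to-head partners can share 1 event and are both counted: that of H2ac12, 89 bp downstream of its start site, lies 267 bp upstream of the H2bc12 start site. POL2S5P domains reached 15669 reads over H3c3 and H2bc3, and 13705 reads in a domain that covers H4c9, H2ac11, H2bc11, H2ac12 and H2bc12.

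HA-ZBTB11 was listed at a smaller share of these genes than of all genes, and HA-ZFP131 events were few. HA-ZBTB11, a zinc finger protein, had 3 events near 4 histone genes (7.02%), against 35.9% of all protein-coding genes. These held 85.0 reads at H2ac21 and H2ac20, 46.8 at a place 775 bp from H3c15 and 36.3 at a place 905 bp from H4c14. They ranked 9715, 18098 and 20772 by reads among 22448 events. Within 500 bp there was 1 event, near 2 genes, against 29.3% of all genes. All 4 genes with an event within 1 kb are in the chromosome 3 group. HA-ZFP131, also a zinc finger protein, had 2 events, at positions 23761383 and 23761514 of chromosome 13 between H4c1 and H3c1, with 356.5 and 515.2 reads and ranks of 682 and 557 among 3637 events. The nearer of them lies 134 bp upstream of the H4c1 start site, inside the promoter printed above. With 2 of 57 genes the HA-ZFP131 share was 3.51%, against 10.2% of all genes. Its 95% interval of 0.428% to 12.1%, which treats neighbours as independent, holds the share of all genes. H2bc6, annotated over 37455 bp, also spans HA-ZBTB11 signal that lies more than 1 kb from either end and was not counted.

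The CHD4 lists, of a chromatin remodeller, held 0 histone genes in Zbtb11KO, Zfp131KO and wildtype cells, against 6.27%, 12.5% and 11.3% of all genes. SETD1A, an H3K4 methyltransferase, had 10 events at 15 genes in wildtype (26.3%, against 43.7% of all genes), led by H2ac20 and H2ac21 with 278.2 reads and H4c6 with 173.1 reads. H3K27me3, the Polycomb mark, was listed over H2bc1 and H2ac1 alone, with up to 559 reads per domain in Zbtb11KO, 213 in Zfp131KO and 754 in wildtype. This stretch differed in the authors' deposited table by -0.40 ± 0.33 (log2, SE; adjusted p = 0.44 in DESeq2) in Zbtb11KO. The H2bc1 region differed in the authors' deposited table for Zfp131KO by -0.29 ± 0.34, with an adjusted p of 0.57 in DESeq2 (background 3.56% lower and 6.3% higher in Zbtb11KO, 6.59% lower and 9.72% higher in Zfp131KO). H2bc1 and H2ac1 are known as testis histone genes.

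Genes that act on histone genes and their mRNAs looked different. Of 21 regulators and mRNA processing factors of histone genes found by symbol, 20 had a HA-ZBTB11 event, 18 a SETD1A event and 4 a HA-ZFP131 event. The shares of all protein-coding genes were 35.9%, 43.7% and 10.2%. Cpsf1, Cpsf3 and Cpsf2, which encode cleavage factor subunits, held 1721, 1452 and 688.9 HA-ZBTB11 reads, Slbp 646.5 and Npat 47.1. Ncbp2, the small cap-binding subunit, had 1950 HA-ZBTB11 and 2049 HA-ZFP131 reads. HA-ZBTB11 events were listed at 8 of 11 replication-independent histone genes, 2 of 6 linker H1 genes and 11 of 16 histone chaperone genes. The linker H1 count lay near the 35.9% of all genes.

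Some members had little or no signal, and most of these lie in copied sequence. In no list of the series were H2bc23, H2ac23, H4c17, H2ac24, H2ac19, H2ac18, H3c13 and H2bc18 found, 8 genes in all. Each promoter was cut into all its 31-base words, and the words found at another place among the promoters were counted. For 9 of the 52 promoters at least 50% of the words were repeated (17.3%, against 5.43% of all promoters). Of those 9 genes, 1 had a wildtype NELF event and 2 a wildtype H3K4me3 domain, whereas of 39 genes with no repeated word 34 had each. The exception with NELF was H3c15, whose event lies 868 bp downstream of its annotated start site. H3c13 and H2bc18 had no repeated word and no listed signal. How reads that match several places were treated is not given in the sources used here, so loss of such reads and absence of signal cannot be told apart at these genes.

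**Figure D2:**
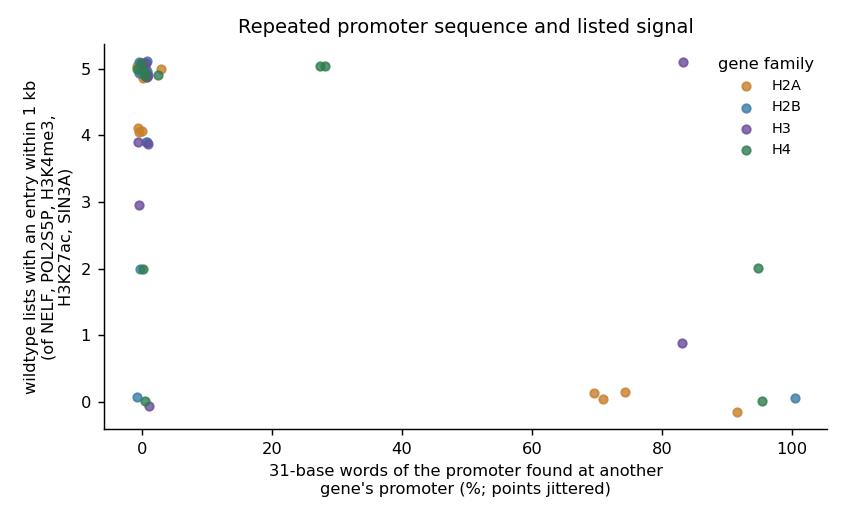
Percent of 31-base words of each promoter that occur at another promoter (horizontal axis) against the number of wildtype lists, of NELF, POL2S5P, H3K4me3, H3K27ac and SIN3A, with an entry within 1 kb (vertical axis), for 52 histone genes coloured by family. The 9 promoters with at least 50% repeated words sit at the right, and 1 of them had a NELF event.

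In the authors' comparison NELF was lower at histone genes in Zbtb11KO cells, with a median near that of other genes, whereas the event lists described further on gave a smaller fall at histone genes. In the authors' deposited table, 44 histone genes had a NELF region, which formed 28 stretches once overlapping regions were joined, and 20 of the 28 were lower in Zbtb11KO and 0 higher at a DESeq2 adjusted p under 0.05. The background was 55.1% lower and 0.0933% higher over 11793 stretches of all protein-coding genes. The histone stretches had a median log2 fold change of -0.94, against -0.98 for all stretches in the authors' deposited table. At an unadjusted p under 0.05 the counts were 22 lower and 0 higher. After centring on the median of all stretches, which moves every value by that median, 0 histone stretches were called (0.39% lower and 0.212% higher over all).

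Single histone stretches ranged from -1.33 to 0.03 in the authors' deposited table. By family, it called lower 11 of 12 H2A genes, 10 of 14 H2B, 6 of 9 H3 and 7 of 9 H4 genes with a region. The largest NELF falls of Zbtb11KO in the authors' deposited table were at H2ac15 and H2bc15 (log2 fold change -1.33 ± 0.34 SE, DESeq2 adjusted p = 0.0013), H3c15 (-1.16 ± 0.35, adjusted p = 0.0054) and H4c12 (-1.14 ± 0.31, adjusted p = 0.0021). H4c4, with the highest mean signal, fell by 1.13 ± 0.30 (log2, SE; DESeq2 adjusted p = 0.0020 in the authors' deposited table). The H2bc1 and H2ac1 stretch (0.03 ± 0.39, adjusted p = 0.95) and H3c11 (-0.40 ± 0.34, adjusted p = 0.29) were not called by DESeq2 in the authors' deposited table.

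**Figure D3:**
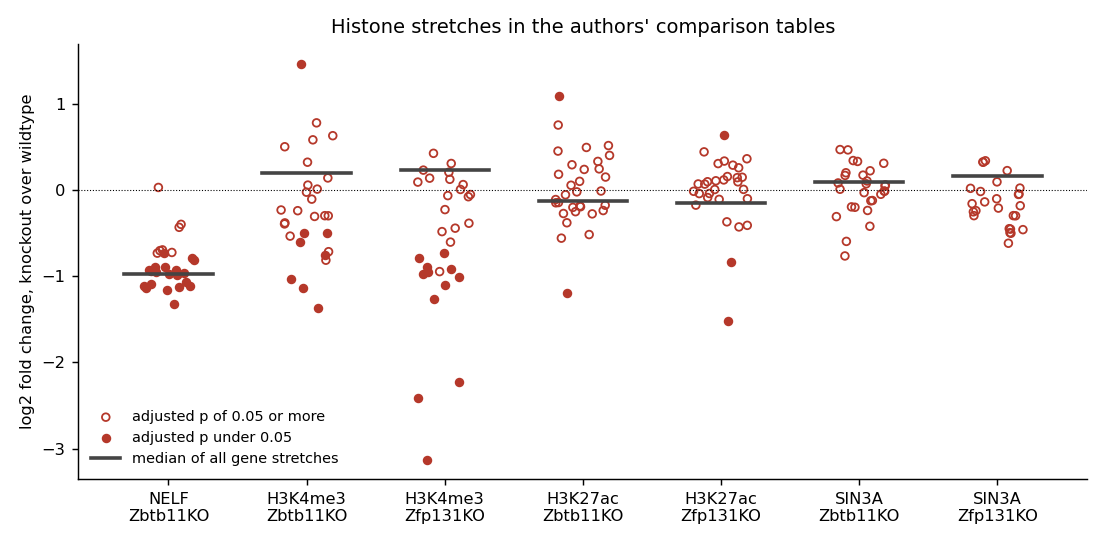
Log2 fold change, knockout over wildtype, of each histone stretch (circles, filled where the adjusted p was under 0.05) in 7 of the authors' deposited tables, with the median of all gene stretches as a bar. In H3K4me3 of Zfp131KO, 12 of 30 stretches were lower and 0 higher, and the histone median of -0.47 lay under the all-gene median of 0.23.

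For the 4 genotypes NELF was compared from the event lists, joined across genotypes where events lay within 500 bp and given as RPM (reads per 1000000 reads of the header total). Per the headers, 9.8% of reads fell in events in Zbtb11KO, 11.4% in Zfp131KO and 5.1% in doubleKO, against 23.1% in wildtype; the part of this in the ratios was not tested. Of 41 histone stretches with at least 50 wildtype reads, 31 were listed in Zbtb11KO, 29 in Zfp131KO and 27 in doubleKO (75.6%, 70.7% and 65.9%, against 58.8%, 61.0% and 38.3% of all gene stretches). Histone stretches had a median of 1264 wildtype reads and all stretches 347.8, and listing moves with reads: among stretches between the histone quartiles of 303.6 and 2181 reads, 21 of 21 histone stretches and 91.0% of all were listed in Zbtb11KO. In doubleKO the same band gave 17 of 21 (81.0%), against 64.6% of all stretches. The band does not equalize reads: its histone stretches had a median of 1264 wildtype reads and all its stretches 707.8.

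Where listed, the median log2 ratio to wildtype at histone stretches was -0.53 in Zbtb11KO, -1.09 in Zfp131KO and -1.91 in doubleKO. Over all gene stretches it was -0.88, -0.70 and -1.70. Relative to all stretches, which does not depend on the scaling, histone stretches thus differed by 0.35 in Zbtb11KO, -0.38 in Zfp131KO and -0.21 in doubleKO. In Zbtb11KO this departs from the authors' deposited table, where the histone and all-gene medians were -0.94 and -0.98. Among stretches of 303.6 to 2181 wildtype reads, a band that does not equalize reads, the list medians were -0.53 at histone stretches and -0.90 over all in Zbtb11KO. Histone stretches lay above the all-stretch median in 28 of 31 in Zbtb11KO, in 5 of 29 in Zfp131KO and in 11 of 27 in doubleKO. Scaled by reads in events, the histone medians became 0.70 (Zbtb11KO), -0.07 (Zfp131KO) and 0.27 (doubleKO), so the direction against wildtype rests on the scaling. Pooled lists allow no test of these differences, and the 3 ratios share the wildtype list.

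Stretches with H2A and H2B genes had the lowest median NELF ratio in doubleKO. This grouping by family was made after the values were seen. Over 8 stretches with H2A and H2B genes and at least 500 wildtype reads, the log2 ratio ranged from -4.07 to -1.81 with a median of -2.83 in doubleKO. Over 6 H4 stretches of that size it ranged from -3.28 to -1.32 with a median of -1.61. In Zfp131KO the medians were -1.27 for H2A with H2B and -0.93 for H4, and in Zbtb11KO they were -0.61 and -0.48. The ranges overlapped in every genotype.

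The stretch over H2ac12 and H2bc12 had 27.1 RPM of NELF in Zbtb11KO, 13.6 in Zfp131KO and 2.71 in doubleKO, against 45.4 in wildtype. The H4c4 stretch had 34.3, 31.6 and 18.2 RPM in those knockouts, against 45.4 in wildtype. The stretch over H4c1 and H3c1, which holds the ZFP131 events, had 51.0, 45.9 and 23.3 RPM, against 68.4 in wildtype, the highest wildtype value of all histone stretches. H2bc14 had 3.80 RPM in Zbtb11KO and no listed event in Zfp131KO or doubleKO, against 15.4 in wildtype. The H3c8 stretch held 782.2 reads in Zfp131KO and 423.2 in doubleKO and no event in Zbtb11KO or wildtype. Where no event is listed, the lists do not give the number of reads.

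**Figure D4:**
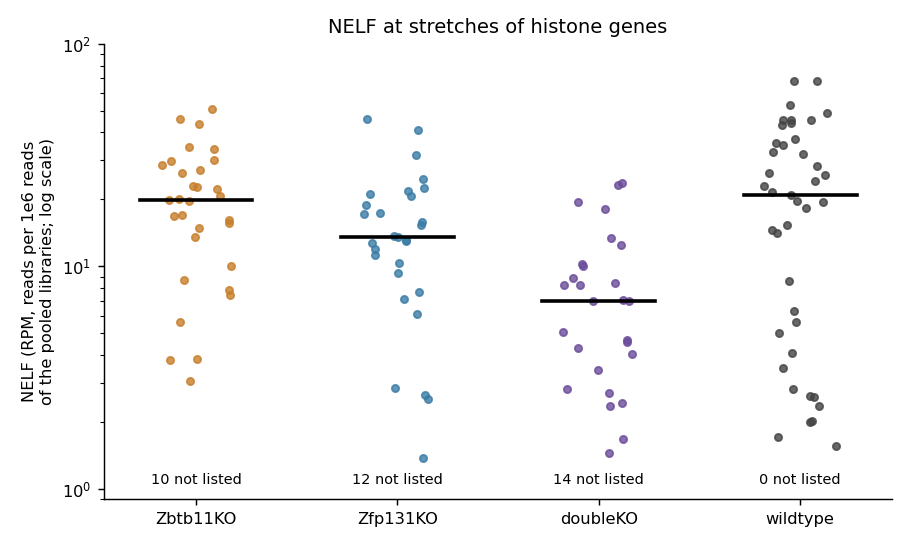
NELF level in RPM, over the reads of the pooled libraries (log axis), at histone stretches with at least 50 wildtype reads, by genotype; each point is a stretch, the bar is the median of listed stretches, and the number not listed stands at the foot. Of 41 stretches, 14 were not listed in doubleKO, and the highest in doubleKO had 23.6 RPM, against 68.4 in wildtype.

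H3K4me3, a mark of active promoters, had lower fold changes at histone genes than at other genes in both single knockouts. For Zfp131KO, the authors' deposited table had 12 of 30 histone stretches lower and 0 higher (DESeq2 adjusted p under 0.05), against 4.17% lower and 32.6% higher over 12635 stretches of all genes. The median log2 fold change was -0.47 at histone stretches and 0.23 over all stretches. For Zbtb11KO, the authors' deposited table had 7 of 28 histone stretches lower and 1 higher, against 23.4% lower and 42.7% higher over 12604 stretches of all genes. The share called lower was near the background there, the share called higher far below it, and the medians were -0.30 at histone stretches and 0.19 over all. Centred on the median of all gene stretches, 14 of 30 were lower and 0 higher in Zfp131KO (background 10.0% lower, 11.5% higher) and 11 of 28 lower and 0 higher in Zbtb11KO (30.6% lower, 39.4% higher). Taking the region with the smallest p for every gene gave 25 of 33 lower in Zfp131KO (8.11% lower and 33.2% higher over all genes) and 14 of 31 in Zbtb11KO (24.2% lower and 43.4% higher). Histone regions were narrower, with a median width of 475.5 bp in the Zfp131KO table and 1179 bp in the Zbtb11KO table, against 1570 and 1591 bp over all genes, and the part of width in the result was not tested. Of 5 primitive endoderm markers with a region, 2 were higher in Zbtb11KO and 3 in Zfp131KO and 0 lower in either. Of 5 stem cell markers, 1 was higher and 2 lower in Zbtb11KO, and 0 were called in Zfp131KO; the part of cell makeup in the result was not tested.

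The members called differed in extent. Among regions taken by highest mean signal, the largest falls of log2 fold change in the authors' deposited table for Zfp131KO were at H2ac15 and H2bc15 (-3.13 ± 0.21, SE), H4c18 (-2.42 ± 0.60), H3c6 (-2.23 ± 0.19) and H3c15 (-1.27 ± 0.38), with DESeq2 adjusted p of 2.1e-47, 0.00059, 7.7e-28 and 0.0053. The regions of H2ac15 and H4c18 were 40 and 60 bp wide, and with regions of at least 100 bp alone 10 of 28 stretches were lower. H3c4 (-1.10 ± 0.33, adjusted p = 0.0061) and H3c10 (-1.01 ± 0.29, adjusted p = 0.0032) followed among the regions taken, also from DESeq2 in the authors' deposited table. Some regions not taken fell further than H3c15, such as that on the H2ac8 side of H2ac8 and H2bc8 (-2.02 ± 0.37, adjusted p = 9.5e-07 in DESeq2 in the authors' deposited table). By family, 6 of 10 H3 genes, 4 of 9 H4, 3 of 13 H2A and 3 of 14 H2B genes with a region were called lower. Genes that share a region are each counted, and each gene took its region of highest mean signal. At head-to-head H2A and H2B genes such as H2bc13 and H2ac13 this was the region between the start sites, whose flanks fell, as described below. The counts therefore do not rank the families.

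Among regions taken by highest mean signal, H3K4me3 fell most in the authors' deposited table for Zbtb11KO at H4c1 (log2 fold change -1.37 ± 0.28 SE, DESeq2 adjusted p = 5e-06). H4c1 carries the ZFP131 events and no ZBTB11 event. Regions of lower mean signal fell further, such as that between the start sites of H2ac11 and H2bc11 (-2.83 ± 0.80, adjusted p = 0.0019 in DESeq2 in the authors' deposited table). The H4c1 region differed in the authors' deposited table for Zfp131KO by -0.08 ± 0.16 (DESeq2 adjusted p = 0.75). H2bc9 with H3c7 (-1.13 ± 0.31, adjusted p = 0.0011), H3c3 with H2bc3 (-1.03 ± 0.22, adjusted p = 2e-05) and H2ac21 with its neighbours (-0.76 ± 0.16, adjusted p = 2.4e-05) were also lower by DESeq2 in the authors' deposited table. By family, 5 of 11 H3 genes, 3 of 13 H2A, 3 of 13 H2B and 1 of 8 H4 genes with a region were called lower. At H2bc13 and H2ac13 the region taken was here a flank, so these counts do not rank the families either. H4c18, one of the copied genes, was higher (1.46 ± 0.60, adjusted p = 0.042 in DESeq2 in the authors' deposited table).

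At head-to-head H2A and H2B genes the regions called lower lay at different places in the single knockouts. Of 9 such pairs, with start sites at most 400 bp apart, 6 had a region that holds both start sites and regions on each side of it, 11 flanking regions in all. For Zbtb11KO, the authors' deposited table had 5 of the 6 central regions lower at a DESeq2 adjusted p under 0.05, and 0 of the 11 flanks. At other genes with start sites as close, 56 of 130 central regions and 28 of 142 flanks were lower in Zbtb11KO, and 7 of 124 central regions and 22 of 137 flanks in Zfp131KO. For Zfp131KO, the authors' deposited table had 0 of the 6 central regions and 10 of the 11 flanks lower. The median log2 fold change in the authors' deposited table was -1.72 at the centre and -0.29 at the flanks (mean of both sides per pair) in Zbtb11KO. For Zfp131KO the authors' deposited table gave 0.22 at the centre and -1.34 at the flanks. The centre lay below its flanks in 6 of 6 pairs in Zbtb11KO and above them in 6 of 6 in Zfp131KO. Mean signal at the 6 centres was 57.8 to 103.9 in the authors' deposited table for Zbtb11KO and 236.0 to 373.3 in that for Zfp131KO. At the flanks it was 114.3 to 828.3 and 145.1 to 310.1. Wildtype signal at the centres may thus differ between the 2 tables, and the part of this in the layout was not tested. This layout was noticed in the data, both comparisons share the wildtype libraries, and the difference between centre and flank was not tested.

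The pair of H2ac8 and H2bc8, whose start sites lie 180 bp apart in the promoter printed above, shows the layout in the domain lists for Zfp131KO, whereas in Zbtb11KO centre and flanks were all lower there. Reads of the domain lists are given here without scaling for depth, which is unknown. The central stretch of 484 bp held 102 reads in Zbtb11KO, 327 in Zfp131KO and 374 in doubleKO, against 358 in wildtype. The flank on the H2ac8 side held 70, 44 and 282 reads, against 342 in wildtype, and that on the H2bc8 side, which reaches H2bc7, held 723, 465 and 2609, against 1704 in wildtype. At H2ac11 and H2bc11 the central stretch held 40 reads in Zbtb11KO, 255 in Zfp131KO and 209 in doubleKO, against 224 in wildtype. At H2ac6, whose partner H2bc4 had no promoter entry, the stretch over the start site held 42, 263 and 303 reads in those knockouts, against 288 in wildtype, and the widest neighbour 608, 234 and 1533, against 1452 in wildtype.

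**Figure D5:**
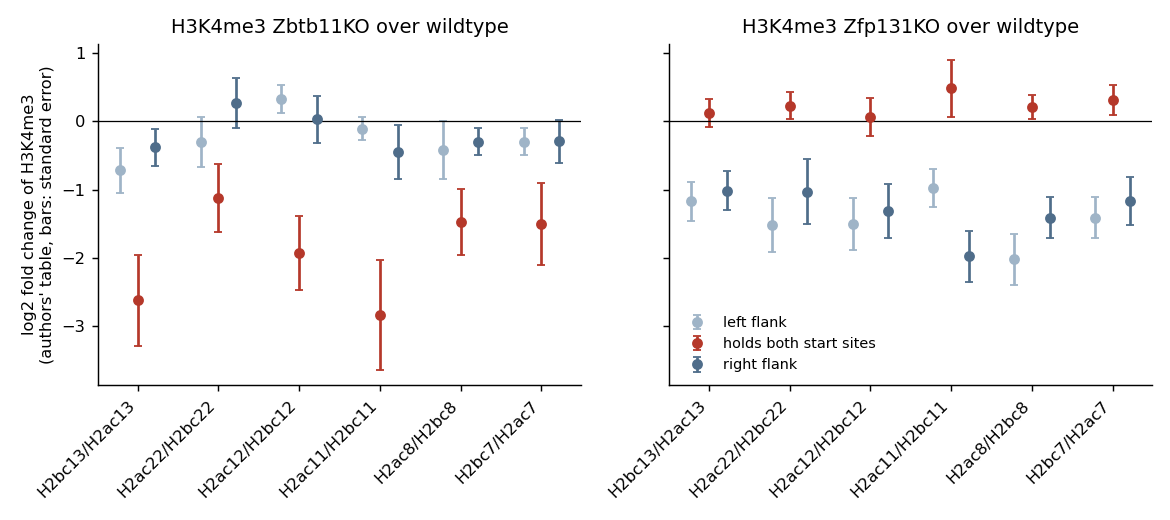
Log2 fold change of H3K4me3 over wildtype in the authors' deposited tables (points, with standard errors) at 6 head-to-head H2A and H2B pairs, for the region that holds both start sites (red) and the widest region on each side (blue shades). In Zbtb11KO 5 of 6 central regions and 0 of 11 flanks were called lower, and in Zfp131KO 0 of 6 and 10 of 11.

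Across the 6 pairs the listed reads at the centre, not scaled for depth, had log2 ratios to wildtype of -2.49 to -1.21 in Zbtb11KO, -0.28 to 0.19 in Zfp131KO and -0.20 to 0.22 in doubleKO. The flanks, also unscaled and as the mean of both sides per pair, had -1.99 to -0.81 in Zbtb11KO, -2.42 to -1.59 in Zfp131KO and -0.13 to 0.75 in doubleKO. Scaled by the sum of reads over all domains, the centres had -2.17 to -0.90 in Zbtb11KO, -0.16 to 0.31 in Zfp131KO and -0.96 to -0.54 in doubleKO. The level of the centres in doubleKO against wildtype thus rests on the scaling. In Zfp131KO the ranges of centre and flanks did not overlap, and in the other genotypes they did. Other protein-coding genes with start sites as close had a median difference of centre minus flank of 0.05 over 79 pairs in Zbtb11KO, 0.07 over 77 in Zfp131KO and 0.09 over 79 in doubleKO, against -0.44, 1.94 and -0.14 at the histone pairs. The central regions of other pairs were wider in the authors' deposited tables, with a median of 2223 bp in the Zfp131KO table, against 435.5 bp at histone pairs.

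The domain lists gave ratios over all histone genes, with doubleKO included. Domains of the 4 genotypes were joined where they overlap, and 50 histone stretches held at least 50 wildtype reads. Their median log2 ratio of listed reads to wildtype, not scaled for depth, was -1.22 in Zbtb11KO, -1.26 in Zfp131KO and 0.22 in doubleKO, against -0.43, -0.11 and 0.71 over all gene stretches. Relative to all stretches the histone values were different by -0.79 in Zbtb11KO (49 of 50 stretches below the all-gene median), by -1.14 in Zfp131KO (45 of 48) and by -0.48 in doubleKO (41 of 49). Scaled by the sum of reads over all domains, the histone median in doubleKO became -0.54, so its direction against wildtype rests on the scaling.

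In stretches with at least 50 wildtype reads, domains covered less sequence in both single knockouts, at histone genes and over all genes. Domains listed in a knockout alone were left out by this limit, and the part of that and of depth was not tested. Without the limit, 88 domains lay within 1 kb of histone genes in Zbtb11KO, 69 in Zfp131KO and 64 in doubleKO, against 60 in wildtype. At histone genes, listed domains covered 45.6 kb of these stretches in Zbtb11KO, 30.5 kb in Zfp131KO and 58.9 kb in doubleKO, against 53.6 kb in wildtype, with 462.6, 677.4 and 1013 reads per kb, against 822.2 in wildtype. Over all gene stretches they covered 20232 kb in Zbtb11KO, 19683 kb in Zfp131KO and 23608 kb in doubleKO, against 21861 kb in wildtype, with 1151, 1355 and 2016 reads per kb, against 1302 in wildtype. Histone stretches held fewer reads than others (a median of 522 wildtype reads, against 1771). Among stretches of 342 to 1266 wildtype reads, the histone quartiles, the medians were -1.38, -1.70 and 0.08 at histone stretches, against -0.43, -0.12 and 0.65 over all. Within that range the median wildtype reads still differed, at 488 for histone stretches and 761 over all.

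The lists and the table can disagree at single genes. At H2bc9, a stretch of 898 bp holds 290 listed reads in Zbtb11KO and none in wildtype, whereas the authors' deposited table gives lower signal there in Zbtb11KO (log2 fold change -1.13). The region of H2ac15 and H2bc15 likewise holds 10 listed reads in Zfp131KO and none in wildtype, beside -3.13 in the authors' deposited table. At H3c6, the list has 305 reads in Zbtb11KO, 66 in Zfp131KO and none in doubleKO or wildtype over a stretch where the authors' deposited table gives -2.23 in Zfp131KO. A gene without a listed domain is therefore not shown to lack the mark.

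H3K27ac, a mark of active promoters and enhancers, and SIN3A, the scaffold of a histone deacetylase complex, showed few calls. In the authors' deposited table for H3K27ac, 1 of 32 histone stretches was lower and 1 higher in Zbtb11KO (background 10.1% lower and 3.88% higher). For Zfp131KO, the authors' deposited table had 2 of 30 lower and 1 higher (background 11.4% lower and 4.81% higher). The calls were H2bc6 (-1.20 ± 0.33) and H4c3 (1.09 ± 0.35) in Zbtb11KO, and H2ac15 (-1.52 ± 0.61), H4c2 (-0.83 ± 0.28) and H2ac11 with H2bc11 (0.64 ± 0.26) in Zfp131KO, as log2 fold change and SE in the authors' deposited table. All 5 rested on regions under 100 bp wide. The windows of H2bc6, because of its annotated length, also reach a second place, at its far end.

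For SIN3A, 0 of 28 histone stretches in Zbtb11KO and 0 of 26 in Zfp131KO were called by DESeq2 in the authors' deposited table, with 1 lower and 0 higher at an unadjusted p under 0.05 in each. The background was 2.34% lower and 5.53% higher in Zbtb11KO, and 1.45% lower and 5.79% higher in Zfp131KO. The medians of log2 fold change from the authors' deposited table were 0.02 in Zbtb11KO and -0.17 in Zfp131KO at histone stretches, against 0.09 and 0.16 over all. The direction of the Zfp131KO values could not be checked against a list. The lowest value in Zfp131KO, -0.62 ± 0.26 in the authors' deposited table (DESeq2 adjusted p = 0.13), was at H4c1 and H3c1.

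For H3K4me3, genes of related function are given beside the shares of all gene stretches, which were 42.7% higher and 23.4% lower in Zbtb11KO and 32.6% higher and 4.17% lower in Zfp131KO. The counts of chaperone genes, of replication-independent histone genes called higher in Zfp131KO, and of regulators and processing factors called lower in Zbtb11KO lay near those shares. For Zfp131KO, the authors' deposited table had 10 of 21 regulators and processing factors higher and 0 lower, among them Lsm11 (log2 fold change 0.59 ± 0.09, SE) and Hinfp (0.39 ± 0.10), a subunit of the U7 particle that processes histone mRNA and an activator of H4 genes. For Zbtb11KO, the authors' deposited table had 13 of 21 higher and 5 lower, with Casp8ap2 (1.35 ± 0.12) and Slbp (0.69 ± 0.10) higher and Npat (-0.63 ± 0.12) and Lsm10 (-0.82 ± 0.23) lower. Linker H1 genes, which lie among or beside the members and partly share their regions (H1f1 with H3c1), had 2 of 5 lower and 0 higher in Zbtb11KO and 1 of 5 lower and 0 higher in Zfp131KO in the authors' deposited table. Replication-independent histone genes had 7 of 11 higher and 1 lower in Zbtb11KO, and 4 higher and 2 lower in Zfp131KO, and chaperone genes had 8 of 16 higher and 4 lower, and 4 higher and 0 lower, in the authors' deposited table.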

How the data were processed

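The submitters' processing notes list Bowtie 1.0.1, bedtools, DESeq2 1.28.1 and the build mm10. How multiply mapping reads were counted is not given in the sources used here. Binding events hold, per the file headers, a signal (reads assigned to the event over pooled replicates), a log2 fold over control and a score (a log2-transformed p-value). Domains hold, per the file headers, read counts and a p-value per domain, called by the authors on pooled reads at p under 0.01. The authors' deposited DESeq2 tables give a mean signal, log2 fold change with SE, a Wald score, a p-value and an adjusted p per region. A positive log2 value is higher in knockout cells, which was checked on regions listed in 1 genotype for 10 of the 11 tables; for SIN3A in Zfp131KO, whose event list was not used, the direction was taken to be the same and was not checked. No column belonged to other samples (0).

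The planned count model needs values per library, so the planned fallback was used: the authors' DESeq2 adjusted p under 0.05. With nothing stating that the 2 libraries of a group came from separate cultures, p-values reflect only how far those libraries lie apart, possibly for technical reasons. Each gene took the region with the highest mean signal within 1 kb of its ends (RefSeq, GRCm38.p6, the assembly of mm10), and chosen regions that overlap were counted once as a stretch; all protein-coding genes were treated alike. The table deposited for NELF in Zfp131KO and the SIN3A event list of Zfp131KO were copies of other files and were not used here.

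Named genes are at most 6 falls and 6 rises per table, by size among called members, up to 8 members by reads per list, and members with ZFP131 or H3K27me3 entries. The members and lists were chosen with earlier results of these data known. The centring was tested on simulated data. Python 3.11.15 with pandas 2.3.3, numpy 2.4.6 and scipy 1.17.1 was used.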

Additional observations from a re-analysis of the deposited data

How the results depend on the processing

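No paired analysis was possible because the files hold pooled lists and finished comparisons, with no value per library, and for the same reason leaving out each library was not possible. Of the values recomputed under another setting, 211 kept their direction and their call or stayed within 1.5 times, 37 moved and 3 reversed. These follow, and the cause was not tested. Most are counts without a share over all gene stretches at the same setting, so they do not show a difference from other genes. Taking the smallest p also raised calls over all genes, from 4.17% to 8.11% lower for H3K4me3 in Zfp131KO.

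NELF stretches lower in Zbtb11KO numbered 11 at an adjusted p under 0.01, and 0 after centring on all regions or on all gene stretches. For H3K4me3 in Zbtb11KO, lower stretches numbered 14 with the smallest p per gene and 11 after centring on gene stretches; higher stretches numbered 0 with a 500 bp window, at 0.01 and after that centring, and 3 after centring on all regions. For H3K4me3 in Zfp131KO, 25 were lower with the smallest p. For H3K27ac in Zbtb11KO, higher stretches numbered 0 (500 bp window, 0.01, regions of 100 bp or more), 2 (2000 bp window, widest region, gene-stretch centring, older Hist symbols added) and 8 (smallest p), and lower ones 2 (smallest p) and 0 (widest region, 100 bp or more). For H3K27ac in Zfp131KO, lower stretches numbered 1 (500 bp window), 7 (smallest p), 0 (0.01, gene-stretch centring, 100 bp or more) and 5 (older symbols added), and higher ones 3 (smallest p) and 0 (0.01, widest region, 100 bp or more). For H3K27me3, 1 was lower in Zbtb11KO with a 2000 bp window and 2 were higher in Zfp131KO with older symbols added. For SIN3A, 1 was lower in each single knockout after gene-stretch centring. Scaled by reads in events, the NELF medians were 0.70 in Zbtb11KO and 0.27 in doubleKO, both reversed, and -0.067 in Zfp131KO. Scaled by the sum over all domains, the H3K4me3 medians were -0.91 in Zbtb11KO and -0.54 in doubleKO, the second reversed. The widest region, gene-stretch centring, older symbols, the 100 bp minimum, joining across gaps and the split of promoters into pieces were chosen after seeing the data.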
